A study of Mus musculus with 8 samples.

Results

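The Dlx and Msx genes examined here are Dlx1, Dlx2, Dlx3, Dlx4, Dlx5, Dlx6, Msx1 and Msx2. They were chosen by symbol and not by a rule on measured values, although earlier results of these data were known. They are 8 of the 20926 genes in the expression table, and each of them passed the filter on low values that left 14854 genes for testing (4 or more of the 8 libraries at 1 or above). RNA was sequenced from the mesenchyme of mouse molars at postnatal day 3, after the epithelium had been taken off. The 4 control libraries came from mice of genotype Ezh2fl/fl, and the 4 mutant libraries from mice of genotype Osr2KI-Cre;Ezh2fl/fl, so both groups carried the floxed Ezh2 allele and only the mutants carried Cre. The labels give the strain as C57BL/6, whereas the study's methods describe a mixed background, and the sources used here do not settle which holds for these libraries. Recombination was limited to cells with a history of Osr2 expression, which covers mesenchyme of the tooth and bone around it, so other cells in the sample kept their Ezh2. In bulk tissue, fewer cells of a type and less RNA per cell cannot be told apart. The study's methods speak of a group size equal to the number of deposited libraries and, for sequencing, of fewer pairs of samples. No source used here says which libraries came from separate animals or litters. Every n is thus a number of libraries, and p-values measure only the spread between these libraries, which may be technical.

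Dlx and Msx proteins are homeodomain transcription factors that bind closely similar DNA sites. Dlx proteins mostly activate transcription, Msx proteins mostly repress it, and members of the families can bind each other and block each other's action. In the head they pattern the pharyngeal arches: Dlx1 and Dlx2 are used along the whole first arch, whereas Dlx5 and Dlx6 set lower jaw identity. In the early molar, Msx1 in the mesenchyme keeps up Bmp4, and loss of Msx1 stops the tooth at the bud stage. Later, Dlx3, Dlx5 and Msx2 act in cells that make dentin, bone and enamel. Ezh2 is the enzyme of the Polycomb complex that places a repressive methyl mark on histone H3, often at CpG-rich promoters of developmental regulators, and the comparison asks how molar mesenchyme changes when this enzyme is lost.

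The Dlx genes lie in convergent pairs on the mm10 genome. Dlx1 (chr2:71528113-71533981, plus strand) and Dlx2 (chr2:71543408-71546754, minus strand) are separated by 9427 bases. Dlx3 (chr11:95120119-95125296, plus strand) and Dlx4 (chr11:95140447-95146263, minus strand) are separated by 15151 bases, and Dlx6 (chr6:6863334-6868568, plus strand) and Dlx5 (chr6:6877805-6882085, minus strand) by 9237 bases. Msx1 (chr5:37820485-37824583, minus strand) and Msx2 (chr13:53466884-53473074, minus strand) stand alone. No stretch as long as a read (75 bases) was identical between the annotated transcripts of any pair of these genes. Shorter trimmed reads and matches with mismatches were not examined. Exons of Dlx1 overlapped those of the antisense gene Dlx1as over 335 bases (6.21% of its exon length), exons of Dlx6 overlapped Dlx6os2 over 104 bases (4.38%) and exons of Dlx4 overlapped Dlx4os over 79 bases (2.42%). Whether counting used the strand is not given in the sources used here, and reads from these overlaps cannot be assigned to one gene. The antisense gene Dlx6os1 also spans Dlx6 on the opposite strand, and overlap between the exons of Dlx6 and Dlx6os1 was not examined.

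The promoters of Dlx2 and Msx1 are shown because they are the member promoters with RefSeq sequence that lay outside the gene's own annotated exons, and that of Msx3, the remaining mouse Msx gene, because it is the contrast described further on. Each line gives the 250 bases upstream of the RefSeq start (GRCm38.p6), read 5′ to 3′ on the gene's own strand, with CpG dinucleotides in capitals.
Dlx2 (chr2:71546755-71547004, minus strand): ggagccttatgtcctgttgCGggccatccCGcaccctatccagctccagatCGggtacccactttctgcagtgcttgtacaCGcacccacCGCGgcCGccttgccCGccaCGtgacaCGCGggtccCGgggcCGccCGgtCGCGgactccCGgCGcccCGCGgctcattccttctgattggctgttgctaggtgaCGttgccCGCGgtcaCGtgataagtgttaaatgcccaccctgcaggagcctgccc
Msx1 (chr5:37824586-37824835, minus strand): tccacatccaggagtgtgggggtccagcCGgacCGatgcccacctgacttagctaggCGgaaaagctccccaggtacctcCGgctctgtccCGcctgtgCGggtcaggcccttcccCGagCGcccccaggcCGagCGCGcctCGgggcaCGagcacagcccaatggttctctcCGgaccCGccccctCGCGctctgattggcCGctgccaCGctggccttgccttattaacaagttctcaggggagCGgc
Msx3 (chr7:140049089-140049338, minus strand): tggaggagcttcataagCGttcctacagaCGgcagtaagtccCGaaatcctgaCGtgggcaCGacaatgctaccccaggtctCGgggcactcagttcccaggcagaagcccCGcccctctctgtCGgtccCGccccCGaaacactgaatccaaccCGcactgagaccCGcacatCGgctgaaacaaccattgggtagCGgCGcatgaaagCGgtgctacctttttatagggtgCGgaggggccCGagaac
All were rich in CpG. The Dlx2 window held 24 CpG dinucleotides, more than 88.0% of the 32851 promoter windows of the same length. The Msx1 window held 20 (more than 82.1% of windows) and the Msx3 window 18 (more than 78.3%), against a median of 6 over all windows. The windows of Dlx1 and Msx2, the other members that matched, held 22 and 16. TAATTG, the core letters of many homeodomain sites, was in none of the 5 windows on either strand, and 7.17% of all windows held it. CCAAT, searched on both strands, was found 2 times for Msx1, 1 time each for Dlx2, Msx2 and Msx3 and not for Dlx1, and 33.8% of all windows held it. A match is a match of letters only.

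Depth was 48.3 to 68.8 M estimated reads per library, and the members drew from 2419 estimated reads (Dlx6) to 30529 (Dlx3) in a library. Counting error was not compared with the spread between libraries. Values are the deposited normalised values, which carry no division by gene length. Ezh2 itself was at 38.3 to 55.0 in the controls and 23.2 to 36.0 in the mutants, lower in all 4 mutant libraries (log2 fold change -0.46, SE 0.16, limma adjusted p = 0.235, exact permutation p = 0.0286), and part of its transcript remained. Markers of dental mesenchyme were present throughout (summed values of 6 genes 1643 to 1959 in controls and 1408 to 1904 in mutants), and 1 of the 6, Lhx8, was higher in the mutants (9.87 ± 1.34 against 23.6 ± 4.28, SD, n = 4 each, limma adjusted p = 0.00509). Epithelial RNA was present too: the 7 epithelial markers summed to 2172 to 4690 in controls and 2025 to 2879 in mutants, and the 3 enamel genes to 726 to 28280 and 675 to 11280. The epithelial markers had lower means in the mutants for 7 of 7, with 0 past an adjusted p (limma) and Epcam and Trp63 among those past an unadjusted one, Epcam being at 111 ± 10.8 and 80.5 ± 15.9 (SD, n = 4 each). The 4 endothelial markers also had lower means (summed values 290 to 323 against 249 to 275), with 0 past an adjusted p (limma), 3 past an unadjusted one (Pecam1, Cdh5 and Kdr) and Cdh5 and Kdr not overlapping between groups. Of all genes tested, 4.87% were lower at an unadjusted p and 2.77% did not overlap in that direction. Control libraries 3 and 4 and mutant library 3 were highest in Enam, which encodes an enamel matrix protein. All 3 cartilage markers were higher in the mutants (Col2a1, Acan and Col9a1, summed values 12.9 to 19.4 against 31.2 to 76.8, limma adjusted p from 0.00838 to 0.0235), and 1 of them, Col2a1, missed the threshold (up to 0.0877) without control library 1, 3 or 4 or mutant library 2, 3 or 4. With an epithelium marker score in the fit Col2a1 was at an adjusted p of 0.103 and Acan at 0.0557, with log2 fold changes of 1.06 (1.36 without the score) and 1.56 (1.73). Without the 3 libraries highest in Enam, a fit in which 1 gene of the table was called higher, none of these marker genes was called (0.263 to 0.431 for cartilage, 0.195 for Lhx8). Of 4 osteoblast markers 1, Ibsp, was higher, while the log2 fold changes of Sp7, Bglap and Bglap2 were 0.03, -0.40 and -0.37 and none of these passed. Of 3 odontoblast markers 0 passed at an adjusted p (limma) and 2 were lower at an unadjusted one (Dspp and Phex). All 3 together summed to 1524 to 3013 in controls and 671 to 2466 in mutants. The part of these cell types in the values of the members was not tested, other than by the fits with a marker score given below.

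All 8 members were expressed at substantial levels in both genotypes. Divided by exon length, Dlx3 stood highest in the controls at 137.8 per kilobase, followed by Msx2 at 77.3 and Dlx5 at 64.6. Dlx2 came next at 56.9, then Dlx4 at 38.2, Msx1 at 29.0, Dlx6 at 18.3 and Dlx1 at 14.8. Each gene in this order exceeded the next in all 8 libraries, with 2 exceptions: Msx2 exceeded Dlx5 in 7 of 8 and Dlx2 exceeded Dlx4 in 6 of 8. The same convergent locus thus held unequal partners, with Dlx2, Dlx3 and Dlx5 above Dlx1, Dlx4 and Dlx6 on the per-length scale. Across the 8 libraries the members were steady, the highest library being between 1.24 times (Dlx5) and 1.58 times (Dlx4) the lowest.

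None of the 8 members differed between genotypes at an adjusted p under 0.05 (limma, Benjamini-Hochberg over all genes tested), in a table where 1.56% of genes were higher and 0.512% lower by that rule. By limma-voom on estimated reads the count was also 0. It was not 0 under other settings: array weights gave 3 higher (Dlx4, Dlx6 and Msx1) and 2 lower (Dlx1 and Dlx2), an osteoblast marker score 1 higher (Dlx4), and leaving out mutant library 1 gave 1 lower (Dlx2). Of 14854 genes, array weights called 2165 higher and 1875 lower, and the osteoblast score called 290 higher. Without mutant library 1, 92 of 14739 genes were called lower. At an unadjusted p under 0.05, 3 of the 8 were higher in the mutants (Dlx4, Dlx6 and Msx1) and 0 lower, beside 8.27% of all genes higher and 4.87% lower. Dlx4 was the only member higher by that rule without control library 3, without control library 4 or without mutant library 1. Dlx1 was lower without either of the last 2, and Dlx2 without mutant library 1. The mutant-to-control difference was positive for 4 members and negative for 4, with a median log2 fold change of -0.03 against 0.01 over all genes tested. Each member's 95% confidence interval lay between -0.45 and 0.55 on the log2 scale, that is, between 0.733-fold and 1.46-fold. A log2 fold change of larger size than that of any member was found in 11.8% of genes tested. With 4 against 4 libraries, the smallest p the exact permutation test can give is 0.0286.

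**Figure D1:**
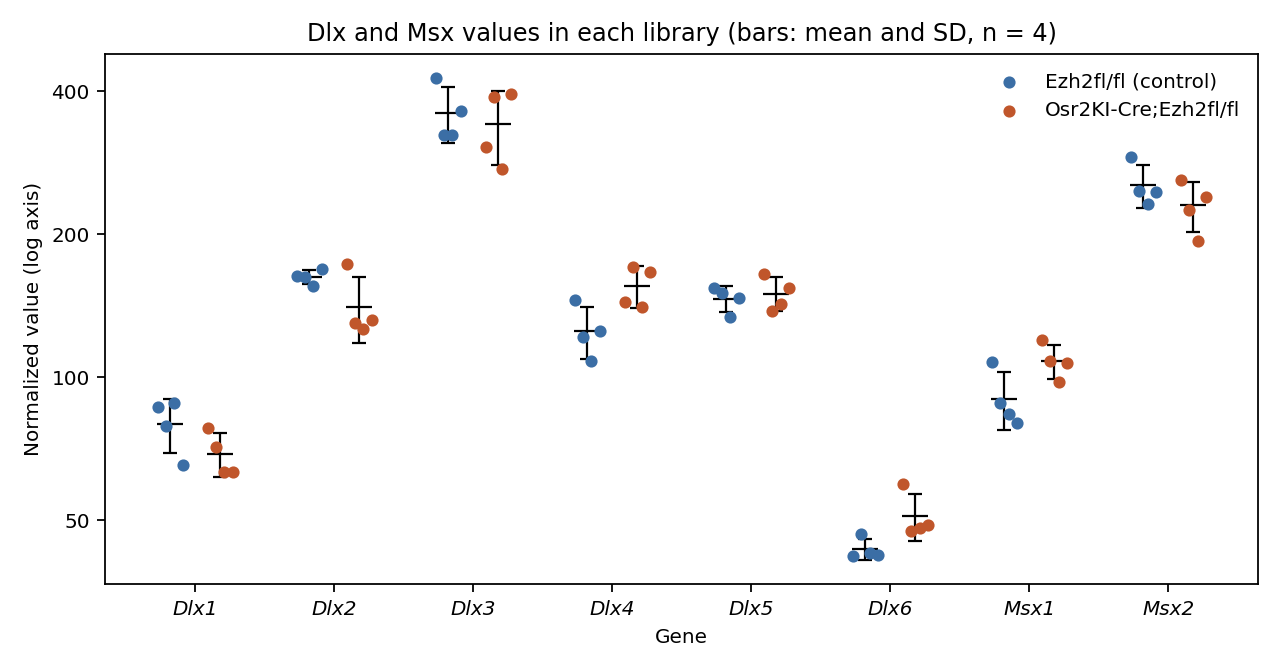
Deposited normalised value of each Dlx and Msx gene in the 4 control and 4 mutant libraries. Points are libraries, and bars give the mean with its SD. The groups overlap for every gene but Dlx6, for which the 4 mutant values (47.4 to 59.5) lie above the 4 control values (42.0 to 46.7).

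Dlx1 and Dlx2, which act together in the arches and in the early molar mesenchyme, had lower means in the mutants. Dlx1 was at 86.5, 78.8, 88.2 and 65.5 in control libraries 1 to 4 and at 78.4, 71.4, 63.2 and 63.2 in mutant libraries 1 to 4. The groups overlapped, although 2 mutant libraries lay below every control. The means were 79.7 ± 10.4 and 69.0 ± 7.32 (SD, n = 4 each), a log2 fold change of -0.20 (SE 0.11) with a limma adjusted p of 0.507 and an exact permutation p of 0.114.

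For Dlx2 the controls gave 163, 163, 155 and 169, and the mutants 173, 130, 126 and 132. Mutant library 1 exceeded all controls, whereas the other 3 mutant libraries lay below all of them. The means were 163 ± 5.64 and 140.4 ± 22.1 (SD, n = 4 each), and the log2 fold change was -0.22 (SE 0.10, limma adjusted p = 0.392, exact permutation p = 0.143). This result rested on that library: without it the log2 fold change was -0.33 and the limma adjusted p 0.0262.

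Dlx1as, the antisense gene of the locus, was at 14.6, 10.9, 16.1 and 8.32 in the controls and 6.24, 9.92, 6.79 and 8.81 in the mutants. Its groups overlapped (log2 fold change -0.57, SE 0.21, limma adjusted p = 0.251). The ratio of Dlx2 to Dlx1 within a library, which does not depend on the scaling between libraries, was 2.07 ± 0.361 in controls and 2.03 ± 0.164 in mutants (SD, n = 4 each). The log2 difference of the ratio was -0.02 (SE 0.13, exact permutation p = 0.914).

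Dlx3 and Dlx4 had fold changes of opposite sign. Dlx3, a regulator of hair, enamel and dentin formation, was at 426, 324, 324 and 364 in the controls and 305, 388, 274 and 394 in the mutants. The groups overlapped, although 2 mutant libraries lay below every control. The means were 359 ± 48.2 and 340.3 ± 60.0 (SD, n = 4 each). The log2 fold change was -0.09 (SE 0.14, limma adjusted p = 0.891, exact permutation p = 0.657), and its sign changed when an osteoblast marker score entered the fit (0.16).

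Dlx4, the partner of Dlx3 at this locus, was at 146, 122, 108 and 125 in the controls and 144, 171, 140 and 167 in the mutants. Mutant libraries 2 and 4 exceeded every control, and control library 1 exceeded mutant libraries 1 and 3. The means were 125 ± 15.5 and 155 ± 15.6 (SD, n = 4 each). Its log2 fold change of 0.31 (SE 0.10, limma adjusted p = 0.205, exact permutation p = 0.0857) was the largest in size among the members. With the osteoblast marker score in the fit it was 0.48, with a limma adjusted p of 0.0221. That score is a mean over Sp7, Ibsp, Bglap and Bglap2, and Ibsp itself was higher in the mutants (limma adjusted p = 0.00126). With the osteoblast score, Dlx4 is thus compared after taking out a gene that differed between genotypes. With the enamel score the log2 fold change of Dlx4 was 0.21 (adjusted p = 0.323, limma) and with the epithelium score 0.17 (0.481), where the unadjusted p was 0.114. Dlx4os, which overlaps Dlx4 on the opposite strand, was at 42.0 ± 6.46 in the controls and 54.6 ± 8.74 in the mutants (SD, n = 4 each, log2 fold change 0.37, SE 0.14, limma adjusted p = 0.275).

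Set against Dlx3 in the same library, Dlx4 was higher in every mutant than in any control. The ratio of Dlx4 to Dlx3 was 0.342, 0.376, 0.333 and 0.344 in the controls and 0.472, 0.441, 0.512 and 0.423 in the mutants. The log2 difference was 0.40 (SE 0.07, exact permutation p = 0.0286), and the adjusted p over the 4 ratios examined was 0.0571. Over the 8 libraries neither gene alone separated the groups. How many other pairs of genes have a ratio that separates the groups was not counted.

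Dlx5 and Dlx6, the lower jaw pair, both had log2 fold changes of at most 0.22. Dlx5 was at 154, 150, 134 and 147 in the controls and 165, 138, 143 and 154 in the mutants. The groups overlapped in part, with mutant libraries 1 and 4 above every control and control library 3 below every mutant. The means were 146 ± 8.92 and 150.0 ± 12.1 (SD, n = 4 each), and the log2 fold change was 0.03 (95% confidence interval -0.14 to 0.21, limma adjusted p = 0.926, exact permutation p = 0.629). Its interval was the narrowest of the 8.

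Dlx6 was at 42.0, 46.7, 42.7 and 42.3 in the controls and 59.5, 47.4, 48.1 and 48.8 in the mutants. It was the 1 member of the 8 whose groups did not overlap, a separation in this direction that 5.76% of all genes tested also had. The gap was narrow, with the lowest mutant library just above control library 2. The means were 43.4 ± 2.23 and 51.0 ± 5.73 (SD, n = 4 each), and the log2 fold change was 0.22 (SE 0.09, limma adjusted p = 0.292, exact permutation p = 0.0286). Under median-of-ratios scaling Dlx6 no longer reached an unadjusted p of 0.05, while Dlx4 and Msx1 still did.

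Dlx6os1, the long noncoding gene at this locus, varied more than either coding gene, from 130 to 255 in the controls and from 131 to 224 in the mutants (log2 fold change -0.12, SE 0.23, limma adjusted p = 0.909). The ratio of Dlx6 to Dlx5 was 0.298 ± 0.0212 in controls and 0.339 ± 0.0179 in mutants (SD, n = 4 each). The groups overlapped slightly, at 0.319 in control library 3 and 0.317 in mutant library 4, and the log2 difference was 0.19 (SE 0.06, exact permutation p = 0.0571, adjusted over the 4 ratios 0.0762).

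The Msx genes had opposite signs. Msx1, the mesenchymal factor needed to pass the bud stage, was at 108, 88.4, 83.5 and 80.1 in the controls and 120, 108, 97.6 and 107 in the mutants. Control library 1 lay within the mutant range and the other 3 controls below it. The means were 90.0 ± 12.4 and 108 ± 9.02 (SD, n = 4 each), and the log2 fold change was 0.27 (SE 0.10, limma adjusted p = 0.280, exact permutation p = 0.0857). With the enamel score in the fit it was 0.16 (unadjusted limma p 0.0767) and with the epithelium score 0.15 (0.192).

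Msx2, which acts in enamel organ and bone, was at 291, 246, 231 and 245 in the controls and 260, 225, 194 and 240 in the mutants. The groups overlapped, although 2 mutant libraries lay below every control. The means were 253 ± 26.0 and 230 ± 28.0 (SD, n = 4 each) and the log2 fold change was -0.14 (SE 0.11, limma adjusted p = 0.681, exact permutation p = 0.314).

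The balance between Msx2 and Msx1 separated the genotypes more widely than either gene. Differences of opposite sign add up in a ratio, and how many other gene pairs separate in this way was not counted. The ratio of Msx2 to Msx1 was 2.70, 2.78, 2.77 and 3.06 in the controls and 2.18, 2.08, 1.99 and 2.24 in the mutants. Every mutant library lay below every control, and the spread within a group was small (2.83 ± 0.158 against 2.12 ± 0.110, SD, n = 4 each). The log2 difference was -0.41 (SE 0.05, exact permutation p = 0.0286, adjusted over the 4 ratios 0.0571). Without the 3 libraries highest in Enam the log2 differences were -0.34 for this ratio and 0.31 for Dlx4 to Dlx3, each with an exact permutation p of 0.10, which is the smallest that 2 against 3 libraries allow.

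**Figure D2:**
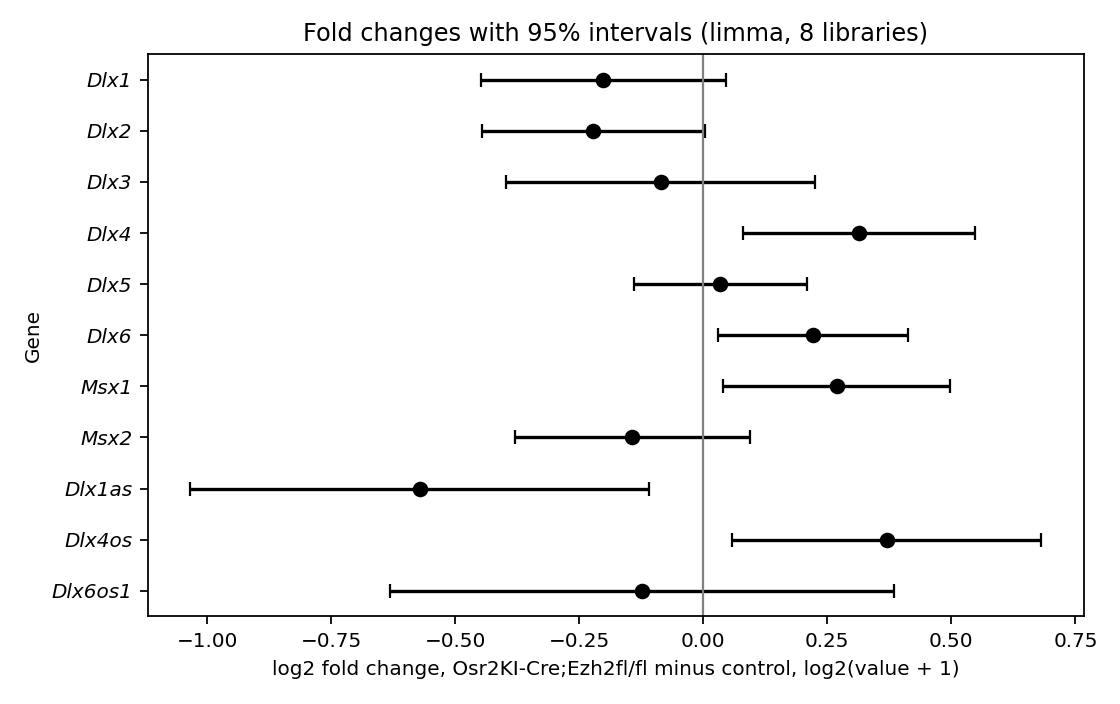
Log2 fold change (mutant minus control, on the log2(value + 1) scale) of each member, with limma's 95% confidence interval. Among the members, Dlx4, Dlx6 and Msx1 have intervals above 0 before adjustment, from 0.03 at the lowest bound to 0.55 at the highest. The intervals of the other 5 members include 0. Of the antisense genes, Dlx1as (-1.03 to -0.11) and Dlx4os (0.06 to 0.68) have intervals without 0 before adjustment, and Dlx6os1 (-0.63 to 0.38) has one that includes it.

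**Figure D3:**
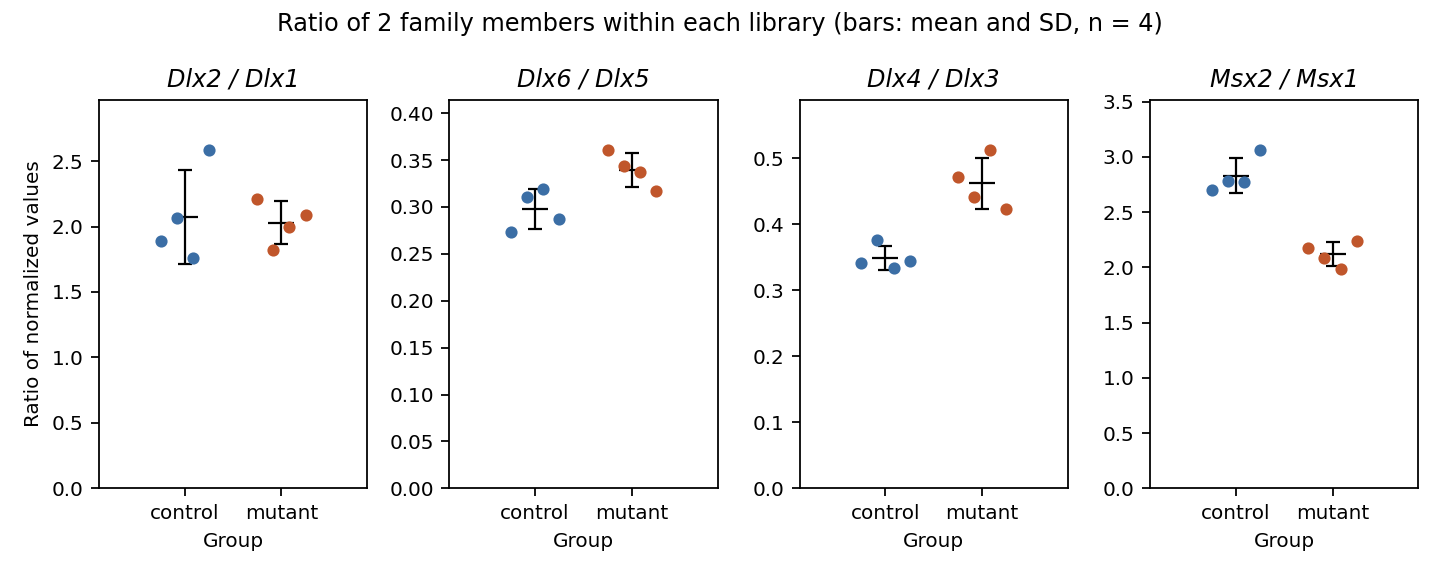
Ratios of 2 members measured in the same library (linear axes from 0), with points for libraries and bars for the mean with its SD (n = 4 per group). The groups do not overlap for Dlx4 to Dlx3 (0.333 to 0.376 against 0.423 to 0.512) and Msx2 to Msx1 (2.70 to 3.06 against 1.99 to 2.24), and overlap for the other 2 ratios.

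Dlx3 and Msx2 are made in the enamel organ as well as in mesenchyme, and enamel RNA varied widely among these libraries. Enam ranged 221-fold, Amelx (amelogenin, the main enamel protein) 51.4-fold and Ambn (ameloblastin) 20.5-fold between the lowest and highest library. Over the same libraries Dlx3 ranged 1.55-fold and Msx2 1.501-fold. In the 4 libraries lowest in Enam (23.3 to 56.4), control 1 and mutants 1, 2 and 4, Dlx3 was at 426, 305, 388 and 394. In the 4 highest (428 to 5146), controls 2, 3 and 4 and mutant 3, it was at 324, 324, 364 and 274. Dlx4 and Msx1 did not overlap between these sets of libraries: Dlx4 was at 144 to 171 in the low-Enam libraries and 108 to 140.2 in the high ones, and Msx1 at 107 to 120 and 80.1 to 97.6. The other 6 members overlapped. How many of all genes tested separate by this split was not counted, so the separation of Dlx4 and Msx1 has no background to be read against. Since 3 of the 4 low-Enam libraries were mutants and 3 of the 4 high ones controls, genotype and Enam level run together here, and the part of enamel RNA in these values was not tested beyond the fits with a marker score. With an enamel score in the fit, Dlx4 was higher and Dlx1 and Msx2 were lower at an unadjusted p under 0.05, and 0 members differed at an adjusted one (limma). At an unadjusted p, that fit called 1234 genes higher and 907 lower of 14854.

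**Figure D4:**
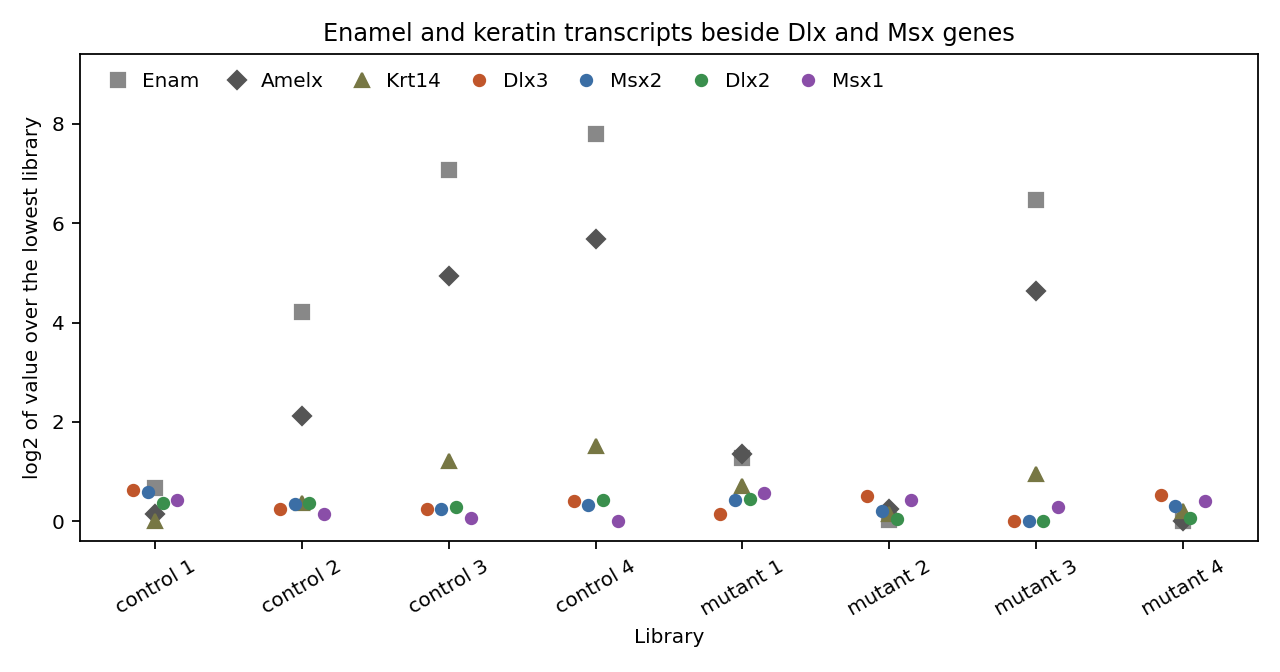
Log2 of each value over its own lowest library for 2 enamel genes (Enam, Amelx), the keratin gene Krt14 and 4 members, by library. Enam spans 221-fold and Amelx 51.4-fold, and the 4 members stay within 1.55-fold.

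Msx3, the remaining mouse Msx gene and not a member, was picked out after its values were seen. It is known for its place in the dorsal neural tube, and at chr7:140046157-140049089 (minus strand) it was nearly silent in the controls. It drew an estimated 3, 10, 7 and 2 reads in the control libraries and 28, 43, 27 and 51 in the mutant libraries, with the first and last controls at or under the floor of 3 reads per library. All mutant libraries lay above all controls, as they did for 5.55% of all genes in the table. The means were 0.1001 ± 0.0501 and 0.571 ± 0.130 (SD, n = 4 each), a ratio of 5.70. It failed the filter, and in the fit without a filter the limma adjusted p was 0.00804, where 1.22% of genes were higher by that rule. By limma-voom on estimated reads the adjusted p was 0.0160. Its mutant level remained far under those of Msx1 and Msx2, whose lowest mutant values were 97.6 and 194.

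Of the 16 other genes in the table within 100 kilobases of a member, 11 passed the filter and none of them differed at an adjusted p under 0.05 (limma), beside 2.07% of all genes. With array weights, a setting that called 2165 genes higher and 1875 lower, 6 of the 11 were called: Dlx4os, Gm11515, Samd14 and Sdhaf3 higher and Dlx1as and Itga3 lower. At an unadjusted p under 0.05, 5 were higher (Dlx4os, Gm11515, Metap1d, Samd14 and Sdhaf3) and 3 lower (Dlx1as, Itga3 and Pdk2), beside 13.1% of all genes in either direction. The groups did not overlap for 6 of the 11, beside 8.53% of all genes. The lowest adjusted p belonged to Itga3, an integrin subunit near Dlx3, at 64.7 ± 6.35 in controls and 49.6 ± 5.45 in mutants (SD, n = 4 each, log2 fold change -0.38, SE 0.10, limma adjusted p = 0.101). Cytl1, a secreted cytokine-like gene known from cartilage and 80665 bases from Msx1, failed the filter. It drew 3 to 5 estimated reads per control library and 18 to 36 per mutant library, and the limma adjusted p in the fit without a filter was 0.00462. The cartilage markers given above moved the same way, and their part in this was not tested.

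Genes that the Dlx and Msx factors regulate, or work with, were followed in 5 lists. Of the 7 jaw arch genes known to depend on Dlx5 and Dlx6, 5 were in the table and 4 passed the filter. Hand2 passed the filter only through its mutant values, so its place among the genes tested fixed its direction, and no count or median over the 4 is read here. Hand2, a lower jaw and limb factor, was at 0.162 ± 0.0490 in the controls and 6.11 ± 1.03 in the mutants (SD, n = 4 each, limma adjusted p = 2.7e-05 in the fit over all genes without a filter), with 5 to 13 estimated reads per control library and 339 to 561 per mutant library. Gsc (goosecoid), a homeobox gene of the lower jaw, rose from 2.96 ± 0.505 to 6.71 ± 1.77 (SD, n = 4 each, log2 fold change 0.94, SE 0.17, limma adjusted p = 0.0235). Gsc missed the threshold without any 1 of the control libraries (0.0559 to 0.0741) and without mutant library 4 (0.0692). It also missed it with the epithelium score (log2 fold change 1.02, adjusted p = 0.0600), with the osteoblast score (0.86, 0.0616) and without the 3 libraries highest in Enam (1.08, 0.261), its fold change staying near the 0.94 given above. Alx4 (log2 fold change 0.46) and Bmp7 (0.26) did not pass, with limma adjusted p of 0.215 and 0.307. In the same libraries, the log2 fold changes of Dlx5 and Dlx6 themselves were 0.03 and 0.22.

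Of the 11 tooth genes placed upstream or downstream of Msx1, 0 passed at an adjusted p under 0.05 (limma), and at an unadjusted p 1 was higher and 2 lower, beside 8.27% and 4.87% of all genes. The list's median log2 fold change was 0.16. Runx2, a factor needed for bone and tooth mesenchyme, had the highest log2 fold change (0.41, SE 0.09, limma adjusted p = 0.0678) and did not overlap between groups, as 5.76% of all genes did not in this direction, at 55.9 to 72.4 in controls and 73.2 to 86.0 in mutants. Fgf3, a mesenchymal growth factor downstream of Msx1, had the lowest (-1.10, SE 0.35, limma adjusted p = 0.178), at 25.3 ± 7.92 and 11.9 ± 5.74 (SD, n = 4 each). Dkk2, a secreted Wnt inhibitor, was at 48.5 ± 8.44 and 34.8 ± 5.69 (SD, n = 4 each, limma adjusted p = 0.177). Bmp4, the ligand that acts in a loop with Msx1, was at 53.2 ± 8.84 and 49.6 ± 7.58 (SD, n = 4 each, log2 fold change -0.10, limma adjusted p = 0.872).

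Among 8 BMP ligands and feedback genes, 0 passed at an adjusted p (limma), 2 were higher at an unadjusted p (Bmp2 and Bmp7), beside 8.27% of all genes, and the median log2 fold change was 0.01. Bmp2 was at 71.7 ± 12.3 in controls and 95.1 ± 18.8 in mutants (SD, n = 4 each, log2 fold change 0.40, SE 0.16, limma adjusted p = 0.316). Of 11 binding partners and corepressors, 10 passed the filter and 0 passed at an adjusted p (limma). Their median was -0.02, with the Groucho family corepressors Tle2 at 0.68 and Tle1 at -0.42 at the ends (limma adjusted p of 0.110 and 0.276).

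Of 12 mineralised tissue genes with sites for Dlx3, Dlx5 or Msx2, 1 rose at an adjusted p, beside 1.56% of all genes, 2 were higher and 2 lower at an unadjusted p, beside 8.27% and 4.87%, and the median log2 fold change was -0.33. The gene that rose was Ibsp, bone sialoprotein, from 114 ± 24.3 to 416 ± 70.5 (SD, n = 4 each, log2 fold change 1.87, SE 0.17, limma adjusted p = 0.00126). It is also an osteoblast marker, and without the 3 libraries highest in Enam its adjusted p was 0.160. The other gene higher at an unadjusted p was Runx2, and the 2 lower were Dspp and Klk4. Dspp, which encodes the main noncollagen proteins of dentin, was at 2138 ± 614 and 1113 ± 817 (SD, n = 4 each, log2 fold change -1.13, SE 0.41, limma adjusted p = 0.256), and its groups overlapped. Klk4, an enamel protease, was at 3.47 ± 1.95 and 1.27 ± 0.601 (SD, n = 4 each, log2 fold change -0.89, SE 0.34, limma adjusted p = 0.294). Amelx and Ambn, the enamel matrix genes of the list, had the lowest log2 fold changes, -1.67 and -1.29, with limma adjusted p of 0.714 and 0.652 and the wide spread given above.

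The genes whose values over the 8 libraries were most like those of a member are given as a description, since all points share library, depth and scaling. By Pearson's r of log2(value + 1), the closest to Dlx1 was Pik3cd (0.92), to Dlx2 Klf15 (0.98), to Dlx3 Gm12346 (0.97) and to Dlx4 Rhpn1 (0.98). For Dlx5 it was Mpc1-ps (0.96), for Dlx6 Npm1 (0.97), for Msx1 Ret (0.98) and for Msx2 Ube2g1 (0.97). No member was among the 3 closest genes of another.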

How the data were processed

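Molar mesenchyme RNA from 8 libraries (4 control, 4 mutant) was sequenced with 75 single-end cycles. The study's methods name TopHat, mm10 and RPKM, and the submitters' processing notes name CASAVA 1.8.2, Partek and STAR 2.5.3a. The deposited values, treated here as a normalised signal, showed no length factor, held no 0, and had a 75th percentile near 38.46 in every library. The smallest value of a library was taken as 1 added read (0.0129 to 0.0190), and estimated reads are value over that minimum less 1. Of such estimates under 19, 62.5% were whole within 0.02, so a count test was not the main one.

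Genes at 1 or above in 4 or more of the 8 libraries were tested by limma 3.58.1 (R 4.3.3) with trend on log2(value + 1), with Benjamini-Hochberg adjustment and a threshold of 0.05. Fold changes on that scale understate changes of low genes. Single values were tested by two-sided exact permutation, with 4 within-library ratios adjusted together. Scripts were tested on simulated data. Genes named are the members, genes within 100 kilobases, listed genes called or at the ends of a list or unadjusted p under 0.05, and the gene most like each member. Msx3 was added after its values were seen, and Bmp4 for its link to Msx1. The members and lists were chosen with earlier results of these data known. Coordinates are from GENCODE M21 (mm10). Promoters were matched by symbol in RefSeq for 4 of 8 members. Alternatives changed the pseudocount, filter, scaling, covariates, weights, block and libraries.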

Additional observations from a re-analysis of the deposited data

Results flagged for a closer look

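Among the 8 members, 3 values stood apart from the other 3 libraries of their group by Dixon's criterion (the gap to the nearest library over the range of the group). Dlx2 in mutant library 1 was at 173.4, against 126 to 132 in the other mutants. Dlx6 in the same library was at 59.5, against 47.4 to 48.8, and Dlx6 in control library 2 was at 46.7, against 42.0 to 42.7. The 8 members gave 16 groups of 4 values, of which chance alone would mark about 0.8. Over all 48 groups examined, which also took in Msx3, the 11 tested neighbours and the 4 within-library ratios, these 3 were the only ones marked, beside about 2.4 by chance.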

How the results depend on the processing

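Of the values recomputed under each alternative, 331 kept their direction and their side of the threshold, or lay within 1.5 times the count given, and 44 counts moved further. The genes higher and lower at an adjusted p (232 and 76) were 88 and 31 with a filter at 10, 64 and 9 with the replicate block, 2165 and 1875 with array weights, and 1 and 0 without the 3 libraries highest in Enam, an alternative chosen after seeing the data, as was limma-voom. With the epithelium score 117 were higher and with the osteoblast score 140 lower. Leaving out 1 library gave 108 to 292 higher and 20 to 92 lower, with both counts smaller by over 1.5 times without control library 2, 3 or 4 or mutant library 2 or 4, and the unadjusted ones without control library 3. At an unadjusted p (1229 and 724), the counts were 673 and 481 with a filter at 10, 3272 and 2773 with array weights, and 568 and 421 without the 3 Enam-high libraries. The osteoblast score gave 1271 lower, and leaving out 1 library 811 to 1361 higher and 459 to 945 lower. Median-of-ratios scaling moved the share of higher among unadjusted calls from 62.9% to 52.4%.

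Members called at an adjusted p were 1 higher with the osteoblast score (Dlx4, 0.48) and 3 higher (Dlx4, Dlx6 and Msx1) and 2 lower (Dlx1 and Dlx2) with array weights. Leaving out 1 library gave 0 higher and 0 to 1 lower (Dlx2). At an unadjusted p (3 higher, 0 lower), 1 was higher with the enamel or the epithelium score and 0 without the 3 Enam-high libraries. Lower were 1 with median-of-ratios scaling (Dlx2), 2 with the enamel score and 2 with array weights, and leaving out 1 library gave 1 to 3 higher and 0 to 2 lower. Over all genes the unadjusted counts were 1234 higher and 907 lower with the enamel score and 1196 and 780 with the epithelium score. Median-of-ratios scaling gave 1012 and 919. With array weights, which let some libraries count for more, log2 fold changes were -0.34 (Dlx1), -0.27 (Dlx2), 0.48 (Dlx4), 0.15 (Dlx6) and 0.30 (Msx1). Dlx3 reversed to 0.16 with the osteoblast score and 0.19 with array weights, and Dlx5 to -0.0046 with the enamel score and -0.0022 without the 3 Enam-high libraries. Over libraries left out, the log2 fold change ran from -0.29 to -0.15 for Dlx1, -0.33 to -0.18 for Dlx2, -0.16 to 0.012 for Dlx3, 0.25 to 0.39 for Dlx4, -0.012 to 0.073 for Dlx5, 0.15 to 0.26 for Dlx6, 0.22 to 0.36 for Msx1 and -0.21 to -0.06 for Msx2. The cause of these changes was not tested.

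Same-numbered libraries of the 2 groups did not deviate together (r from -0.43 to 0.22 over the 4 pairs, with 1 of the 4 control libraries matching its own number best), so their numbers were not taken as pairs. With the replicate block, 2 members (Dlx4 and Msx1) were higher at an unadjusted p. Gsc was then at an adjusted p of 0.128, with its log2 fold change still 0.94. By a sign-flip test over same-numbered libraries, the log2 differences of Dlx4 to Dlx3 (0.40) and Msx2 to Msx1 (-0.41) each had an exact p of 0.125, the smallest that 4 pairs allow. Without the 3 Enam-high libraries they were 0.31 and -0.34, and Dlx2 to Dlx1 was 0.043. Over libraries left out the 4 ratios ran from 0.35 to 0.44 (Dlx4 to Dlx3), -0.44 to -0.38 (Msx2 to Msx1), 0.15 to 0.23 (Dlx6 to Dlx5) and -0.092 to 0.092 (Dlx2 to Dlx1).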
